A study of Arabidopsis thaliana with 6 samples.

Results

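The regions described here are the binding sites that 4 libraries placed on the chloroplast genome of Arabidopsis thaliana. They were taken as the distinct sites listed on ChrC, which gave 1035 and 1234 sites in the 2 FA-CLIP libraries and 907 and 966 in the 2 mock libraries. Together these were 4142 of the 90466 sites of the 4 libraries, and they fell in 131 chloroplast loci. FA-CLIP precipitates an RNA-binding protein, here ECT2, from formaldehyde-crosslinked material and trims the bound RNA with RNase T1. The FA-CLIP libraries came from seedlings labelled transgenic ECT2:ETC2-Flag/ect2, in which the tagged protein is carried in the ect2 T-DNA insertion mutant (SALK_002225). The mock libraries came from wild type seedlings taken through the same anti-FLAG M2 magnetic beads. The 2 input libraries came from the transgenic genotype with no antibody. Each group had 14-day-old seedlings of the Col-0 background and formaldehyde crosslinking. The promoter of the transgene and the number of lines were not stated. FA-CLIP and mock libraries therefore differ by the tagged protein and by genotype together, and these cannot be told apart. Nothing in the labels says that the replicates were separate cultures, so the spread between them may be technical.

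The chloroplast genome carries genes for its own ribosomal RNAs and tRNAs, for some ribosomal proteins and RNA polymerase subunits, and for core subunits of the photosynthetic complexes. Many of these genes are transcribed together and their RNAs are then cut, spliced and trimmed inside the organelle. The rRNA genes and several others lie in a large inverted repeat and so occur in a pair of identical copies. ECT2 reads N6-methyladenosine in RNA through its YTH domain and is known mainly for its work on nuclear-encoded mRNA in the cytosol. Chloroplast RNA in this experiment is thus a large RNA population to set beside the nuclear mRNA targets.

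The sequences below are those on which the results turn. They were read from the RefSeq TAIR10.1 chloroplast genome, 5′ to 3′ on the strand of the gene, and positions in the gene are counted from its first base. Each region joins the overlapping sites of the 4 libraries, and capitals mark the bases covered by a site in each of the libraries that list one there. The first pair are the 16S rRNA regions with the most events.
rrn16S ATCG00920, ChrC:102245-102287, + strand, gene positions 1234 to 1276: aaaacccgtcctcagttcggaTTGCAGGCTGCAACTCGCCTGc
rrn16S ATCG00920, ChrC:102113-102146, + strand, gene positions 1102 to 1135: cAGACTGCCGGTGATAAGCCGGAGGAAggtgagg
The next pair are 23S rRNA regions, one with overlapping groups and one lower in FA-CLIP.
rrn23S ATCG00950, ChrC:106899-107005, + strand, gene positions 2209 to 2315: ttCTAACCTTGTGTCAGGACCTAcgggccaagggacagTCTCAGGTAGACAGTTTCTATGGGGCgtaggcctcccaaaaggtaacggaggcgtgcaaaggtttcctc
rrn23S ATCG00950, ChrC:105867-105908, + strand, gene positions 1177 to 1218: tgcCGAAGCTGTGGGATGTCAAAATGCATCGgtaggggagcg
Coding regions of photosystem genes follow, psbA with the largest mRNA region and a smaller one that was relatively richer in FA-CLIP, then psaA.
psbA ATCG00020, ChrC:1333-1391, − strand, gene positions 54 to 112: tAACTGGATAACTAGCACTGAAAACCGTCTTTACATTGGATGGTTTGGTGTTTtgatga
psbA ATCG00020, ChrC:1168-1194, − strand, gene positions 251 to 277: ctacTTCTGCAGCTATTGGAttgcatt
psaA ATCG00350, ChrC:40774-40803, − strand, gene positions 1055 to 1084: ttaacctaGCTATGTTAGGCTCTTTAacca
A pair of regions lie in introns, of petB and of a tRNA-Gly gene.
petB ATCG00720, ChrC:74986-75079, + strand, gene positions 146 to 239: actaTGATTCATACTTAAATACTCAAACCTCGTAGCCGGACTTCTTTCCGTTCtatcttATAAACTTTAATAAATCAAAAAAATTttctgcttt
trnG ATCG00100, ChrC:8923-8947, + strand, gene positions 278 to 302: GGATAAAGCTAGAAAAGTGTCTTTc
The last has the most events among the sites present in both FA-CLIP libraries that no mock site overlapped. Its capitals mark the bases covered in both FA-CLIP libraries.
psbC ATCG00280, ChrC:34051-34078, + strand: actttGTATCTGGAGTACTTCACTTaat

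Chloroplast sites took a smaller share of the FA-CLIP libraries than of the mock libraries. The measure is the conversion event, which the files count at each site. Chloroplast sites held 62797 of 901178 events in FA-CLIP library 1 and 61535 of 830355 in FA-CLIP library 2, against 81624 of 489805 in mock library 1 and 113352 of 653262 in mock library 2. The shares were 6.97% (Wilson 95% interval 6.92 to 7.02) and 7.41% (7.35 to 7.47) in FA-CLIP, against 16.7% (16.6 to 16.8) and 17.4% (17.3 to 17.4) in mock. The intervals cover counting error only, since reads without molecular identifiers are not independent molecules. The mean share was 7.19% ± 0.313 in FA-CLIP and 17.01% ± 0.486 in mock (SD, n = 2 each), a log2 ratio of −1.24. The groups did not overlap, but an exact two-sided permutation test gave p = 0.333, which is the smallest p that 2 libraries against 2 allow. That test cannot pass a threshold of 0.05 here, so the remaining comparisons give values and whether the groups overlap. Seedlings hold many cell types. Neither the number of green cells nor the chloroplast RNA per cell was measured, and a share of a precipitate cannot tell them apart.

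The size and the direction of this difference depended on what the chloroplast events were divided by. Sites in nuclear protein-coding genes held 54.6% and 65.9% of the events in FA-CLIP, against 6.23% and 5.56% in mock. With those sites left out, an alternative chosen after seeing the data, chloroplast sites held 15.3% and 21.8% of the remaining events in FA-CLIP, against 17.8% and 18.4% in mock. The FA-CLIP values then lay on either side of both mock values, and the log2 ratio was 0.04. The remaining events were themselves unlike between the FA-CLIP libraries. Nuclear loci outside protein-coding, rRNA and tRNA genes held 14.3% and 3.42% of all events in FA-CLIP, against 27.1% and 24.6% in mock. As a share of distinct sites, chloroplast sites made up 2.48% and 2.98% in FA-CLIP, against 26.4% and 25.1% in mock. Because a share falls when another class fills the library, the loci below are given both as a share of the chloroplast events and as a share of all events.

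Chloroplast rRNA was the class that was lower in FA-CLIP on both scales. Its sites held 55.5% and 48.4% of the chloroplast events in FA-CLIP, against 76.3% and 77.3% in mock. As a share of all events it held 3.87% and 3.59% in FA-CLIP, against 12.7% and 13.4% in mock, so the mock mean was 3.51 times the FA-CLIP mean. Nuclear rRNA held 15.4% and 19.2% of all events in FA-CLIP, against 35.1% and 39.9% in mock, a mock mean 2.17 times the FA-CLIP mean. Set against rRNA alone, chloroplast rRNA made up 20.03% and 15.8% of the chloroplast and nuclear rRNA events in FA-CLIP, against 26.6% and 25.2% in mock. These groups did not overlap either. Mitochondrial rRNA and tRNA, a small class, held 0.152% and 0.1496% of all events in FA-CLIP, against 1.04% and 1.36% in mock.

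tRNA and mRNA loci made up the rest. tRNA loci held 22.4% and 22.3% of the chloroplast events in FA-CLIP, against 11.9% and 11.9% in mock. Protein-coding loci together held 22.2% and 29.3% in FA-CLIP, against 11.8% and 10.8% in mock. Measured against all events, tRNA loci were lower in FA-CLIP, with 1.56% and 1.65% against 1.99% and 2.06% in mock. The protein-coding loci then overlapped, with 1.54% and 2.17% in FA-CLIP and 1.97% and 1.87% in mock. Chloroplast events outside rRNA held 3.10% and 3.82% of all events in FA-CLIP, against 3.95% and 3.93% in mock, a smaller gap than that of rRNA. This too depended on the denominator. With rRNA, tRNA and the loci AT2G01021 and AT5G45720 left out of both counts, the remaining chloroplast sites held 2.24% and 3.05% of the events in FA-CLIP, against 5.95% and 6.33% in mock. The groups then did not overlap, and the log2 ratio was −1.21.

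**Figure D1:**
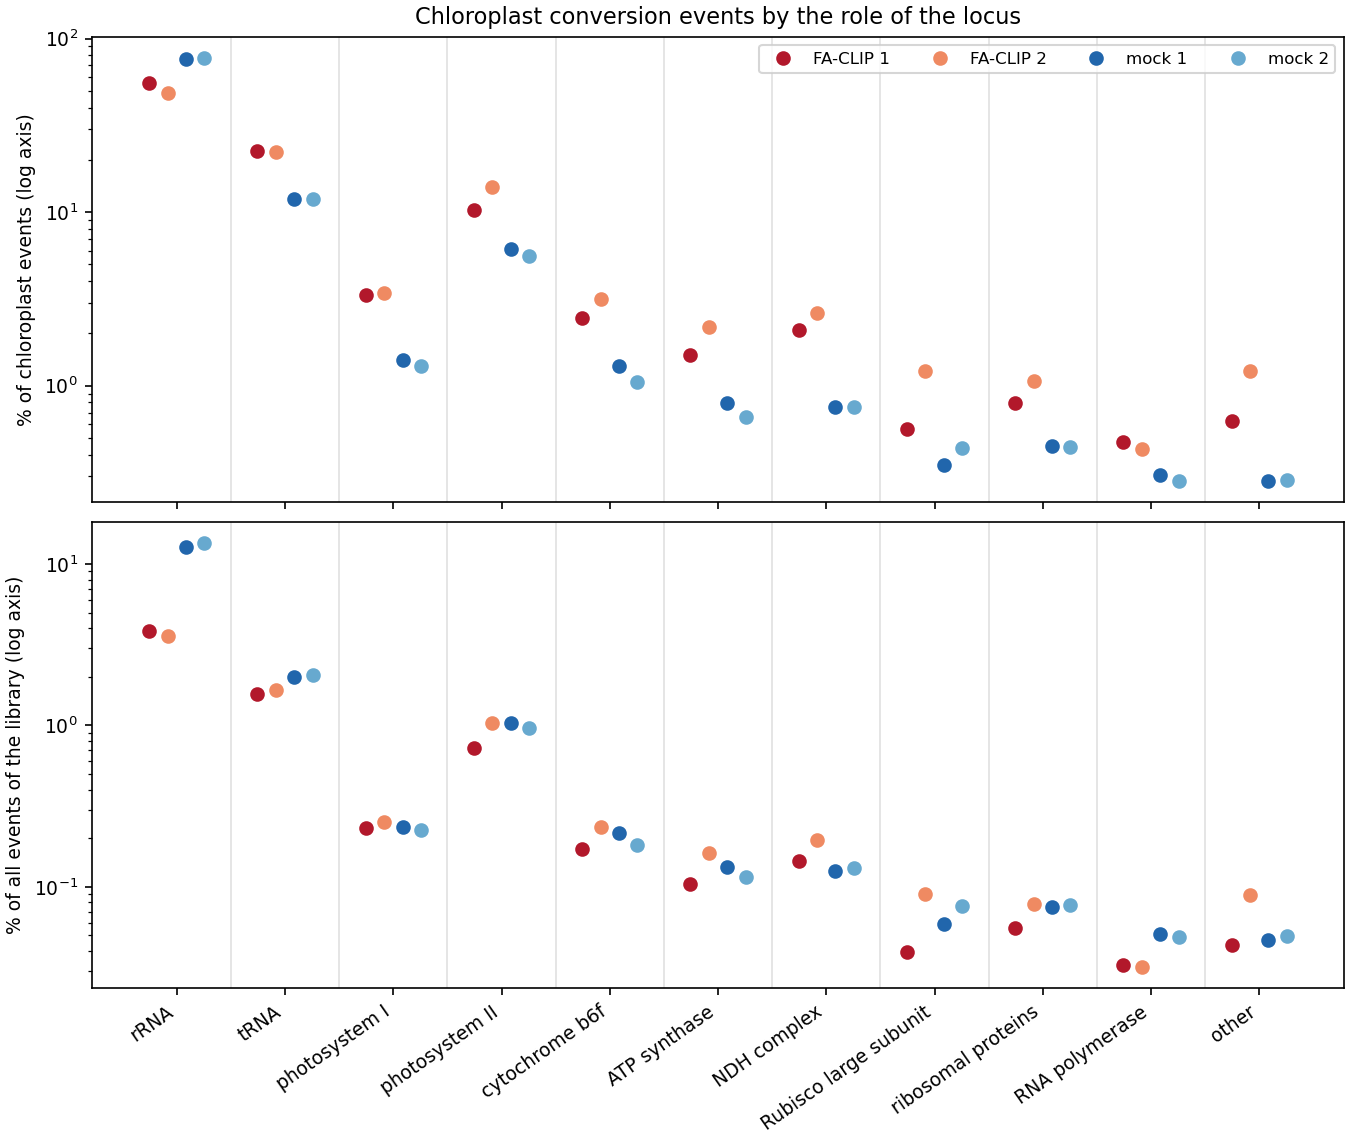
Conversion events of the 11 role classes of chloroplast loci, as a percentage of the chloroplast events (upper panel) and of all events (lower panel) on log axes, with 1 point per library. In the upper panel rRNA is the only class with both FA-CLIP points below both mock points. In the lower panel rRNA stands at 3.87% and 3.59% in FA-CLIP against 12.7% and 13.4% in mock, while the points of 7 classes interleave.

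The 4 chloroplast rRNAs did not share one ratio. The 16S rRNA of the small ribosomal subunit, summed over both copies, had 24421 and 18709 events in FA-CLIP, against 45087 and 63846 in mock. That was 38.9% and 30.4% of the chloroplast events in FA-CLIP and 55.2% and 56.3% in mock. The 23S rRNA of the large subunit had 13.0% and 15.6% in FA-CLIP, against 16.4% and 16.3% in mock, a smaller gap. The 5S rRNA, also of the large subunit, had 3.31% and 2.39% in FA-CLIP, against 4.42% and 4.54% in mock. The short 4.5S rRNA had 0.255% and 0.0455% in FA-CLIP, against 0.245% and 0.222% in mock, and these overlapped. As shares of all events the mock means were 3.82 times the FA-CLIP means for 16S, 2.69 times for 23S and 3.74 times for 5S. For 4.5S the ratio was 3.76, but 11.8 without FA-CLIP library 1 and 2.24 without FA-CLIP library 2.

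Single stretches of rRNA held a large part of the rRNA events. The 16S region at gene positions 1234 to 1276, shown above, had 5729 and 3101 events in FA-CLIP, against 8697 and 15460 in mock. In mock library 2 a single site in it held 13.6% of the chloroplast events, and its mirror image in the other copy of the repeat held 13.7%. FA-CLIP library 1 listed 2 adjoining sites there, with 3404 events at positions 1234 to 1255 and 2325 events from position 1256. Mock library 1 had 8697 events at positions 1255 to 1276 in the first copy and no site before position 1255 in this region. In the other copy it listed 6184 events at positions 1238 to 1251. The 16S region at positions 1102 to 1135 had 1520 and 1968 events in FA-CLIP, against 2525 and 6786 in mock, and as shares of the chloroplast events these overlapped. Without the sites of the largest 16S region in each copy, a setting chosen after seeing the data, rRNA held 45.5% and 42.6% of the chloroplast events in FA-CLIP, against 66.5% and 68.8% in mock. The log2 ratio of the rRNA share was then −0.62, against −0.56 with all sites, so the difference remained without that region.

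Within 23S rRNA the regions differed from one another. The region at gene positions 1177 to 1218 had 432 and 320 events in FA-CLIP, against 1027 and 2392 in mock, and its mean share of the chloroplast events was 2.79 times as high in mock. The region at positions 2209 to 2315 had 933 and 2010 events in FA-CLIP, against 1699 and 1687 in mock, and its shares overlapped. Over the 95 rRNA regions found in all 4 libraries, the FA-CLIP shares of the chloroplast events were below the mock shares in 35, above them in 14 and overlapping in 46. Over the 239 such regions in protein-coding loci they were below in 3 and above in 172, and over all 431 such regions they were below in 40, above in 247 and overlapping in 144. These shares sum to the same total in each library, so a low rRNA share and a high share elsewhere are not separate measurements.

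**Figure D2:**
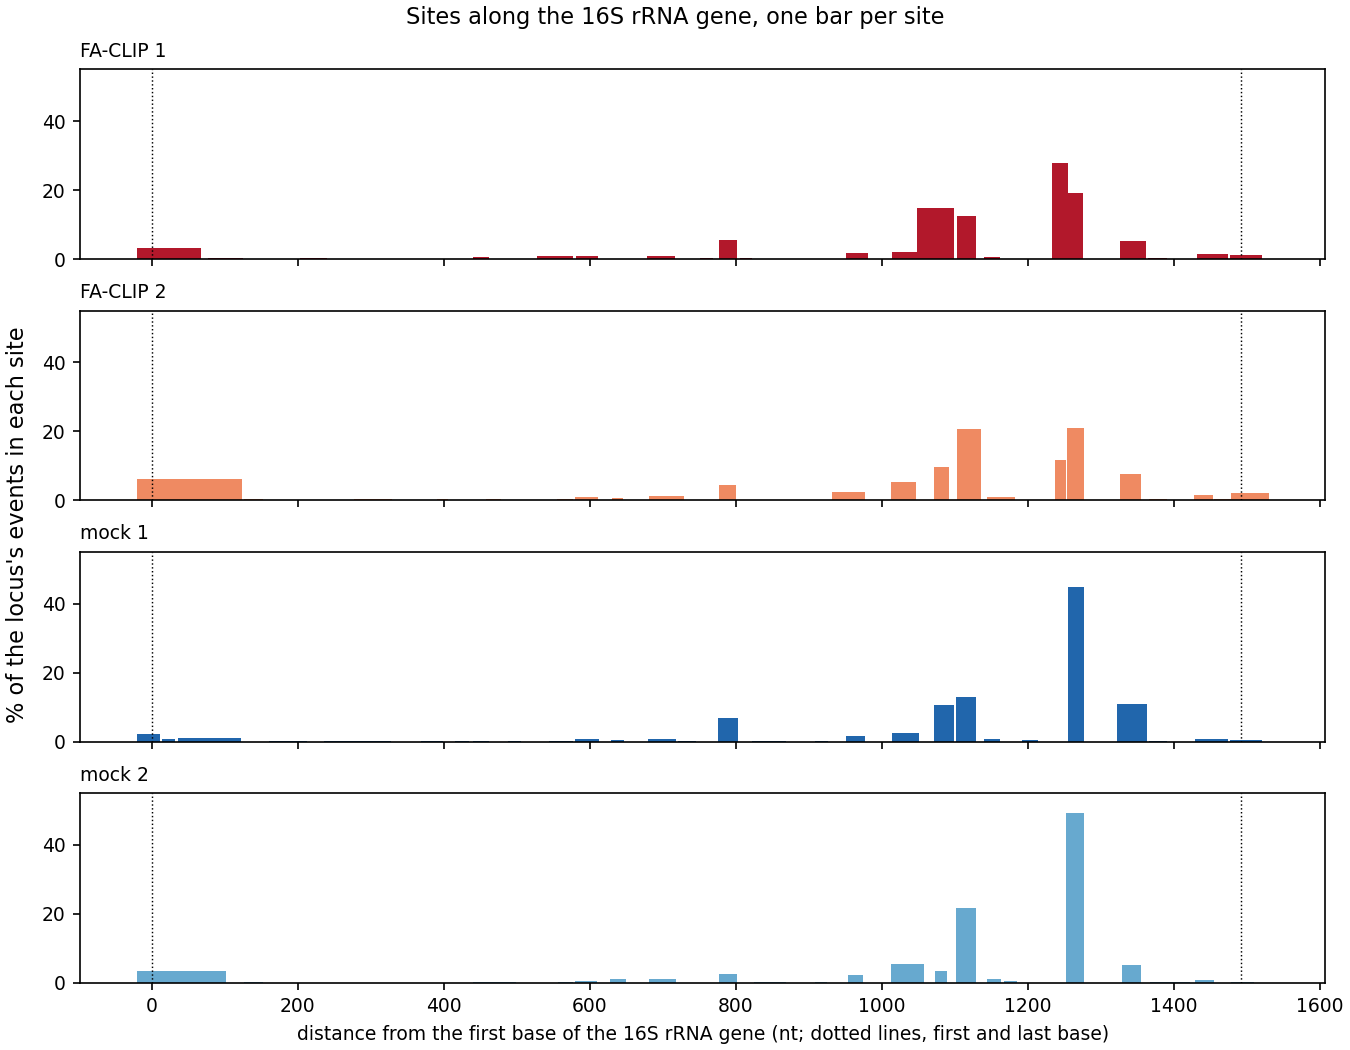
Sites along the 16S rRNA gene ATCG00920 in the 4 libraries, each bar spanning 1 site, with the distance from the first base of the gene in nt and the share of the locus's events in percent. The sites lie at like positions in all 4 libraries, and the largest bar, 27.9% in FA-CLIP library 1, 21.0% in FA-CLIP library 2, 44.7% in mock library 1 and 49.4% in mock library 2, falls between positions 1234 and 1276.

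The inverted repeat sets a limit on these values. Its 2 copies, ChrC:84171-110434 and ChrC:128215-154478, are 26264 bases long and identical in the reference, so a read from one fits the other equally well. The repeat held 64.9% and 56.3% of the chloroplast events in FA-CLIP, against 82.4% and 83.3% in mock. Except in mock library 1, events divided almost evenly between the copies, 20435 and 20318 in FA-CLIP library 1, 17189 and 17457 in FA-CLIP library 2, and 46971 and 47489 in mock library 2. In mock library 1 the copies held 30895 and 36344 events, a ratio of 0.85. The sites did not match as closely as the events. Between 77.7% and 84.0% of the sites in the first copy overlapped the mirror image of a site in the other, but only 30 of 655 had exactly the same edges over the 4 libraries. The 6184-event site of mock library 1 was the largest without a mirrored site. How the authors assigned reads to the copies was not stated, so the 2 loci of a pair are best read as 1.

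tRNA loci had stable totals and unstable members. The class total differed by little between the FA-CLIP libraries, 22.35% and 22.32% of the chloroplast events, but single tRNAs moved by several times in both directions. A tRNA-Ser locus, trnS ATCG00370, had 216 and 954 events in FA-CLIP, against 131 and 166 in mock. A tRNA-Met locus, trnM ATCG00460, had 133 and 506 events in FA-CLIP, against 68 and 46 in mock. A tRNA-Arg locus, trnR ATCG00110, had 0.320% and 1.06% of the chloroplast events in FA-CLIP, against 0.141% and 0.154% in mock. For these loci FA-CLIP library 2 was the high one, and both FA-CLIP shares of the chloroplast events lay above both mock shares.

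Other tRNAs went the opposite way between the FA-CLIP libraries. The tRNA-Gln locus trnQ had 646 and 151 events in FA-CLIP, against 240 and 475 in mock. The initiator tRNA locus trnfM had 630 and 148 events in FA-CLIP, against 264 and 320 in mock. The tRNA-Glu locus trnE had 0.796% and 0.176% of the chloroplast events in FA-CLIP, against 0.532% and 0.00353% in mock. In these loci FA-CLIP library 1 was the high one and the groups overlapped. For trnE the mock libraries also stood far apart. Among 27 tRNA loci without an intron and listed in all 4 libraries, 13 differed by more than 2-fold between the FA-CLIP libraries and 8 between the mock libraries. Among 70 protein-coding loci the counts were 19 and 7. Nuclear tRNA loci, by comparison, held 8.54% and 3.88% of all events in FA-CLIP, against 13.9% and 11.2% in mock.

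**Figure D3:**
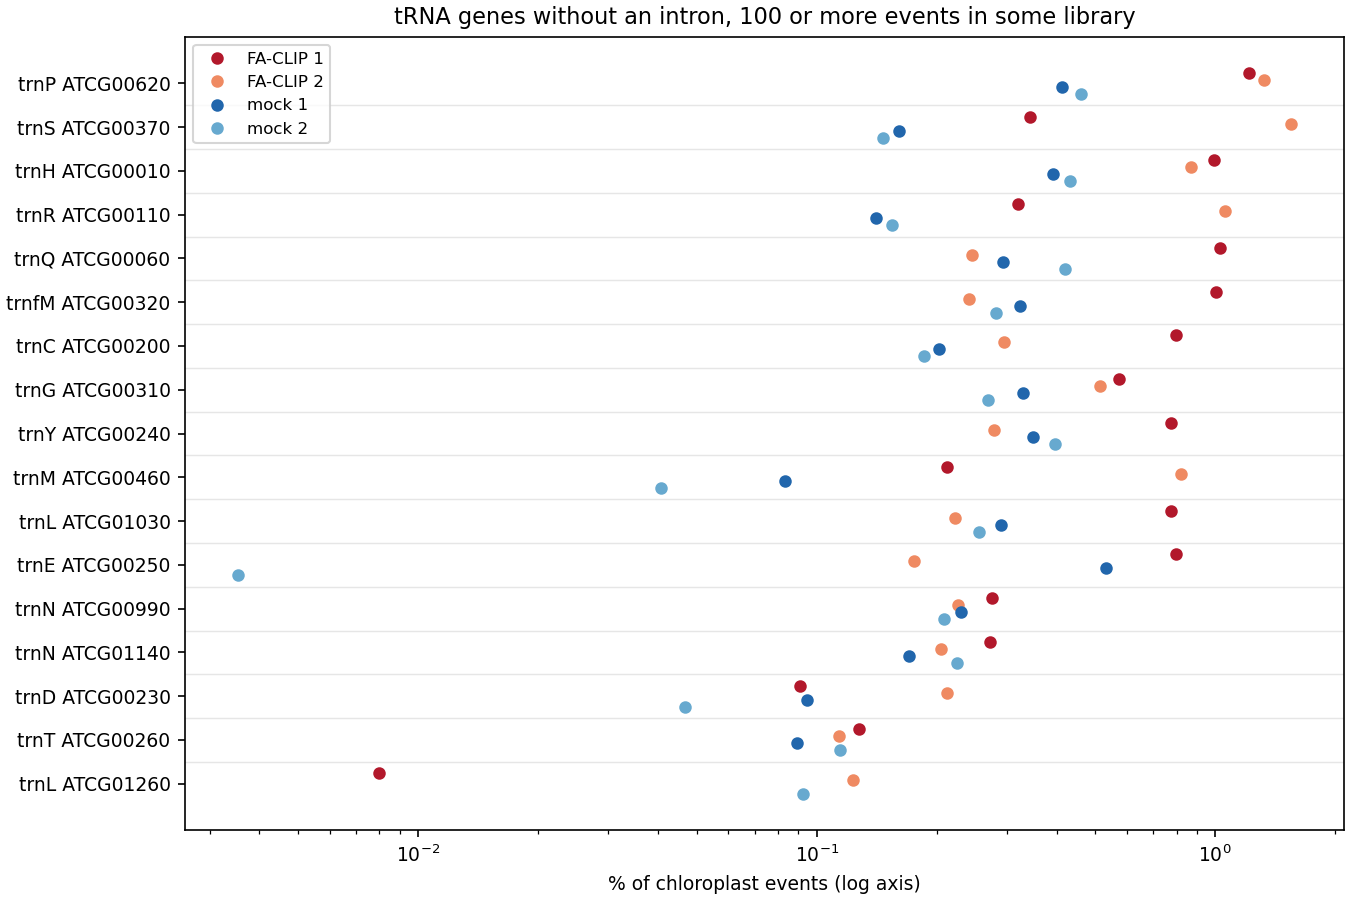
Share of the chloroplast events, in percent on a log axis, of the 17 tRNA loci without an intron that had 100 or more events in some library, with 1 point per library. The FA-CLIP points of trnS, trnR and trnM have library 2 on the right, those of trnQ, trnfM and trnE have library 1 on the right, and trnL ATCG01260 has no site in mock library 1.

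A few tRNAs were steadier. The tRNA-Pro locus trnP had 762 and 818 events in FA-CLIP, against 337 and 522 in mock, 1.27% ± 0.0819 of the chloroplast events against 0.437% ± 0.0337 (SD, n = 2 each). It was also above both mock values as a share of all events. The tRNA-His locus trnH had 625 and 535 events in FA-CLIP, against 320 and 489 in mock. Over the 37 tRNA loci, FA-CLIP was above mock in 22 and below in 0 as a share of the chloroplast events, and above in 2 and below in 13 as a share of all events. The backgrounds were 72.5% above and 5.34% below over all 131 chloroplast loci on the first scale, and 40.0% above and 30.1% below over the loci of the series listed in 4 libraries on the second.

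Introns held much of the tRNA signal, and in tRNA genes with an intron it is also most of the gene length. Sites that the authors label as intronic held 12.6% and 13.0% of the chloroplast events in FA-CLIP, against 7.59% and 8.10% in mock. Within tRNA loci they held 44.5% and 44.3% of the events in FA-CLIP, against 53.6% and 57.7% in mock. The groups did not overlap in either case and the order was opposite. The order over all chloroplast events depended on rRNA in the denominator. With rRNA loci left out, intronic sites held 28.2% and 25.1% in FA-CLIP, against 32.0% and 35.8% in mock. The middle of each of the 840 sites with this label lay inside an intron of the RefSeq annotation. The tRNA-Gly locus trnG ATCG00100 had 1249 and 2040 intron events in FA-CLIP, against 939 and 1704 in mock. Its 714-base intron had 175 and 286 events per 100 nt in FA-CLIP, against 132 and 239 in mock. Its 72 bases of exon had 404 and 401 events per 100 nt in FA-CLIP, against 267 and 568 in mock. In the tRNA-Ile and tRNA-Ala genes between the 16S and 23S genes, introns held 92.3% and 98.2% of the events of trnI ATCG01200 in FA-CLIP, against 93.4% and 99.4% in mock. For trnA ATCG01190 the intron held 87.8% and 70.5% in FA-CLIP, against 86.8% and 94.4% in mock. For the tRNA-Lys locus trnK, whose intron contains matK, the exon had 319 and 873 events in FA-CLIP, against 173 and 149 in mock. The part of it at the end of the gene was a single site of 594 events in FA-CLIP library 2, with no site there in the other 3 libraries.

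Intron events were also common in 3 photosynthesis genes. petB, for cytochrome b6, had 526 and 777 intron events in FA-CLIP, against 386 and 451 in mock. Per 100 nt the petB intron had 65.4 and 96.6 events in FA-CLIP, against 48.0 and 56.1 in mock, and its exons had 21.9 and 88.0 in FA-CLIP, against 43.7 and 29.5 in mock. petD, for subunit IV of the same complex, had 340 and 218 intron events in FA-CLIP, against 166 and 280 in mock. In atpF, for a subunit of the ATP synthase, the intron had 48.5 and 54.8 events per 100 nt in FA-CLIP, against 28.1 and 45.5 in mock, and its exons had 21.8 and 27.6 in FA-CLIP, against 18.9 and 16.9 in mock. Of 21 loci with an intron, the intron held the denser events in 11 and 9 in the FA-CLIP libraries, and in 11 and 13 in the mock libraries.

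Photosystem II genes were the largest mRNA class, and psbA most of it. psbA encodes the D1 protein of the reaction centre, which is replaced continually in the light. It had 4285 and 5997 events in FA-CLIP, against 3725 and 4449 in mock, or 6.82% and 9.75% of the chloroplast events against 4.56% and 3.92% in mock. Its mean was 8.28% ± 2.07 in FA-CLIP and 4.24% ± 0.452 in mock (SD, n = 2 each), and as a share of all events the groups overlapped. The region at positions 54 to 112, near the start of the coding sequence, had 1617 and 1316 events in FA-CLIP, against 1639 and 1368 in mock. That was 37.7% and 21.9% of the psbA events in FA-CLIP for the largest site, against 43.8% and 30.7% in mock. Some other psbA regions held relatively more in FA-CLIP. The region at positions 251 to 277 had 335 and 610 events in FA-CLIP, against 81 and 220 in mock. Its mean share of the chloroplast events was 5.20 times as high, 3.64 times without FA-CLIP library 2 and 7.68 times without mock library 2. The region at positions 676 to 710 had 118 and 431 events in FA-CLIP, against 73 and 133 in mock. At positions 454 to 478, with 472 and 1098 events in FA-CLIP against 632 and 981 in mock, the shares of the chloroplast events overlapped.

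**Figure D4:**
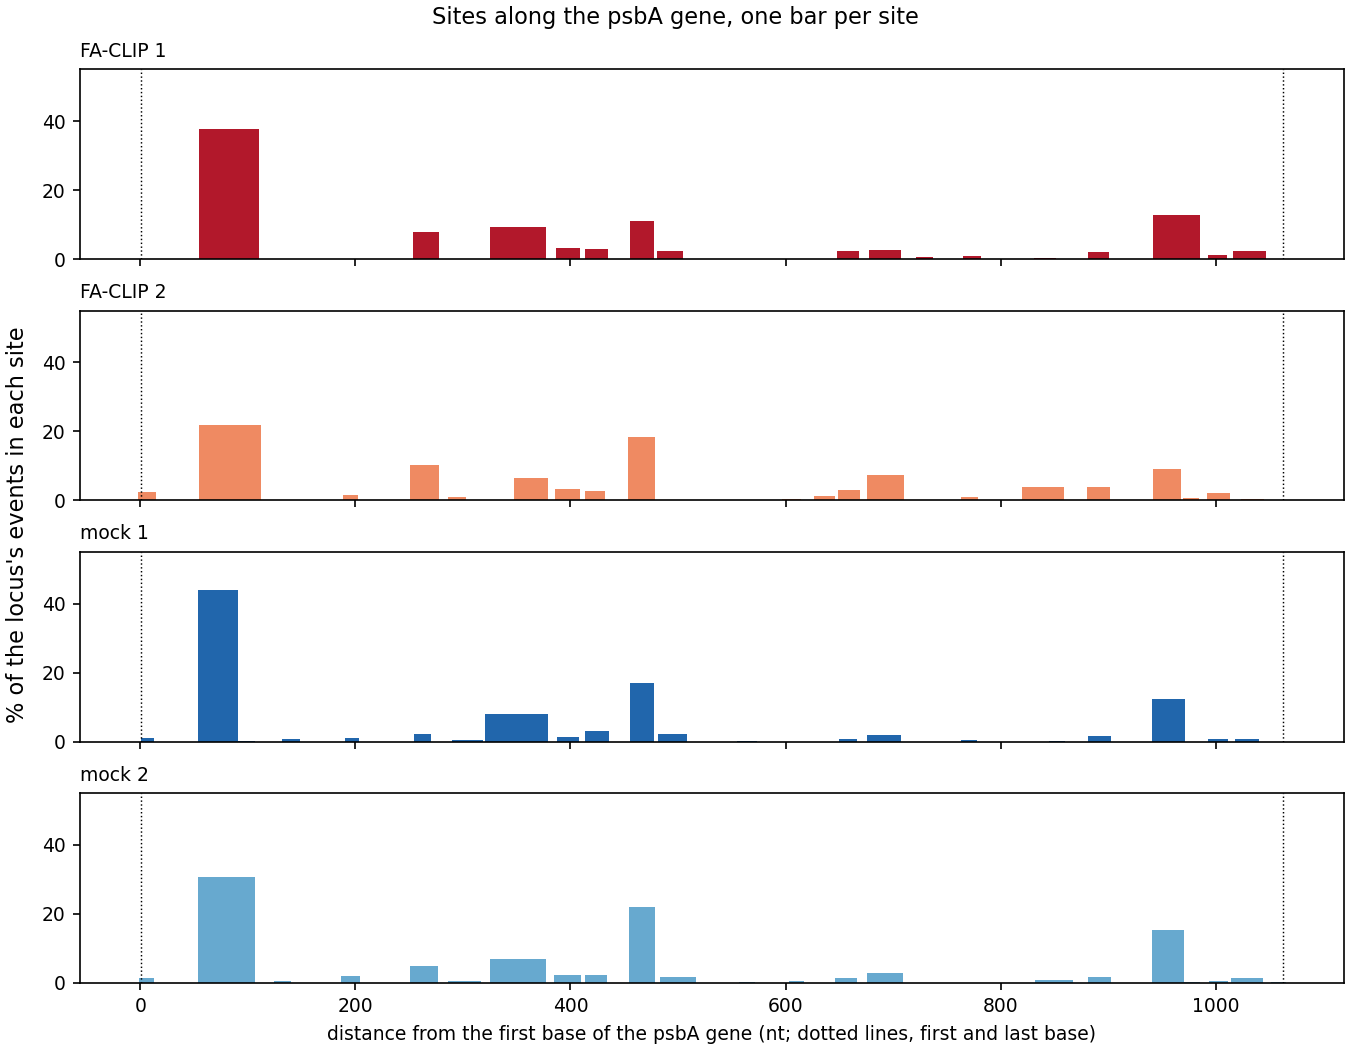
Sites along psbA in the 4 libraries, each bar spanning 1 site, with the distance from the first base of the gene in nt and the share of the psbA events in percent. The largest bar starts at position 54 or 55 in each library and stands at 37.7% and 21.9% in FA-CLIP against 43.8% and 30.7% in mock.

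The other photosystem genes lay in a narrower range. psbC, for the CP43 antenna protein, had 849 and 1096 events in FA-CLIP, against 545 and 711 in mock. psaA and psaB encode the core pair of photosystem I. psaA had 929 and 803 events in FA-CLIP, against 432 and 637 in mock, and psaB had 866 and 933 in FA-CLIP, against 559 and 631 in mock. The psaA region at positions 1055 to 1084, shown above, had 284 and 170 events in FA-CLIP, against 14 and 85 in mock, 7.91 times the mock mean share. The mock libraries decided this size, which was 4.86 times without mock library 1 and 21.2 times without mock library 2. Each of the 15 photosystem II loci and 7 photosystem I loci was higher in FA-CLIP without overlap as a share of the chloroplast events, where 72.5% of all 131 chloroplast loci were. Measured against all events, 3 photosystem II loci were above mock and 5 below, and 2 photosystem I loci were above and 1 below, beside 40.0% above and 30.1% below for loci of the series listed in 4 libraries.

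The thylakoid NDH complex was the class that also exceeded mock as a share of all events. NDH is the complex that passes electrons to plastoquinone in cyclic electron flow. Its loci held 0.145% and 0.195% of all events in FA-CLIP, against 0.126% and 0.132% in mock, and 2.08% and 2.64% of the chloroplast events against 0.753% and 0.758%. ndhA, a membrane subunit, had 518 and 572 events in FA-CLIP, against 200 and 236 in mock. ndhF, another membrane subunit, had 0.188% and 0.289% of the chloroplast events in FA-CLIP, against 0.0478% and 0.0476% in mock. Both were above mock on both scales. Of the 12 NDH loci, 7 were above mock without overlap as a share of all events and 1 was below, where 70.5% of all loci of the series and 40.0% of those listed in 4 libraries were above. The NDH count lies between these backgrounds.

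rbcL, the large subunit of the carbon-fixing enzyme Rubisco, had 354 and 744 events in FA-CLIP, against 286 and 496 in mock. Its share of all events overlapped between the groups, 0.0393% and 0.0896% in FA-CLIP and 0.0584% and 0.0759% in mock. atpH, for the ring subunit of the ATP synthase, had 237 and 322 events in FA-CLIP, against 121 and 133 in mock, and was above mock on both scales. The RNA polymerase class was below mock as a share of all events, with 0.0330% and 0.0320% in FA-CLIP against 0.0508% and 0.0488% in mock. Within it rpoB had 161 and 74 events in FA-CLIP, against 182 and 246 in mock. The other polymerase loci, rpoA, rpoC1 and rpoC2, were above mock without overlap as shares of the chloroplast events. Restricted to sites of 10 or more events, the class turned to a log2 ratio of −0.36 within the chloroplast events, against 0.63 over all sites.

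Ribosomal protein loci had few events. The 25 loci together held 499 and 652 events in FA-CLIP, against 365 and 502 in mock. rpl14 had 13 and 15 events in FA-CLIP and no site in mock, and rpl33 had 3 and 2 events in FA-CLIP and no site in mock. A locus without a site may have had reads below the authors' calling minimum, since the smallest listed site has 2 events, so these loci carry no fold change. The loci with the highest ratio of FA-CLIP to mock shares among those in all 4 libraries were trnM (8.35), ycf2 ATCG01280 (7.51), ndhE (7.35), ccsA (6.91) and rps18 (6.86). Without FA-CLIP library 2 the ratio was 3.42 for trnM, and without FA-CLIP library 1 or mock library 1 it was 13.3 and 12.7. The other 4 rest on low counts. Without FA-CLIP library 2 the ratios were 4.52 for ycf2, 4.46 for ndhE and 4.11 for rps18, and without mock library 2 that of ycf2 was 11.9. ycf2, a long gene for an import motor protein, had 11 and 25 events in FA-CLIP, against 2 and 6 in mock. The 5 lowest ratios were all rRNA loci, from 0.502 for rrn4.5S ATCG00960, which was 0.258 without FA-CLIP library 1, to 0.677 for rrn16S ATCG00920.

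**Figure D5:**
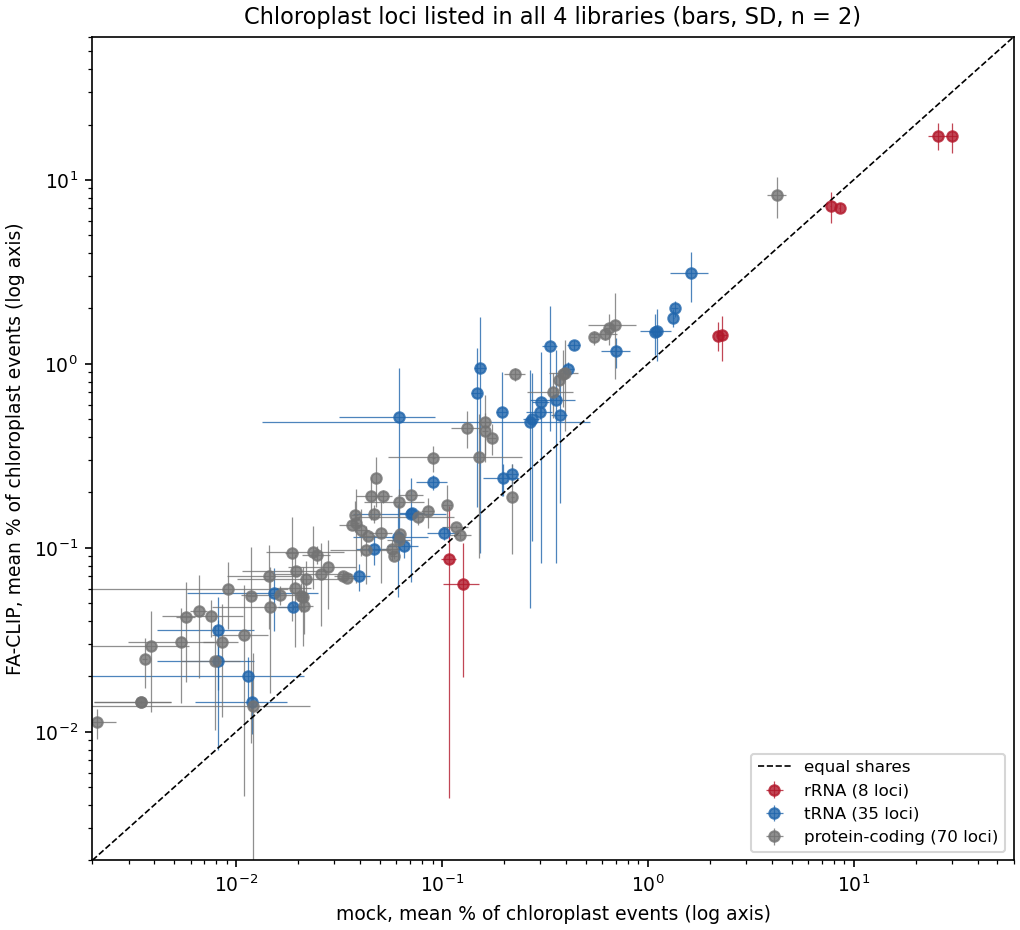
Mean share of the chloroplast events in FA-CLIP against mock for the 113 loci listed in all 4 libraries, in percent on log axes, with bars for the SD (n = 2) and a dashed line at equal shares. The 8 rRNA loci, rpoB and rpl23 ATCG01300 lie below the line and the other loci above it, with psbA the highest of the protein-coding loci at 8.28% against 4.24%.

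Locus by locus, chloroplast loci divided evenly. As a share of all events, both FA-CLIP values lay below both mock values in 32 of 131 loci and above them in 32. Over the 13239 loci of the series the shares were 2.61% below and 70.5% above. Most loci of the series have no mock site, so the closer comparison is with loci listed in all 4 libraries. There 31 of 113 chloroplast loci were below (27.4%) and 28 above (24.8%), against 30.1% below and 40.0% above for the 915 such loci of the series. The share below is close to that background. The median log2 ratio was 0.04 over the 113 chloroplast loci and 0.11 over the 915. As a share of the chloroplast events, 7 of the 131 loci (5.34%) were below and 95 (72.5%) above, of which 6 and 0 were rRNA loci.

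Most chloroplast sites of one group were also found in the other. Of the sites of FA-CLIP library 1, 83.0% overlapped a site of FA-CLIP library 2 by at least 1 nt on the same strand, and 72.7% and 74.3% overlapped a site of mock libraries 1 and 2. For FA-CLIP library 2 the shares were lower, 72.1% with FA-CLIP library 1, and 65.0% and 68.6% with mock libraries 1 and 2. Of the sites of mock library 1, 80.3% overlapped a site of mock library 2, and 81.1% and 86.2% overlapped a site of FA-CLIP libraries 1 and 2. For mock library 2 the shares were 75.8% with mock library 1, and 79.7% and 85.1% with FA-CLIP libraries 1 and 2. Sites present in both FA-CLIP libraries were joined into 698 reproducible sites of median width 45 nt. Of these, 642 (92.0%, Wilson 95% interval 89.7 to 93.8) overlapped a mock site. The matching share was 93.8% for 65 mitochondrial sites, 100% for 64 nuclear rRNA sites and 7.85% for 20497 sites in nuclear protein-coding genes. It ran from 99.2% for 119 rRNA and 128 tRNA sites to 85.1% for ATP synthase, 84.9% for NDH and 69.6% for 23 RNA polymerase sites.

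The 56 reproducible sites with no mock overlap were small. Of these, 54 had a mean below 10 events, and their median was 4 events, against 20 for the sites that did overlap mock. The largest was the psbC site shown above, with 63 and 95 events in FA-CLIP, and the nearest mock site lay 3 positions away. The next was a 23S rRNA site with 16 and 22 events in FA-CLIP, with a mock site 4 positions away. Of the 56, 12 lay within 10 nt of a mock site. Over the genome, 1063 joined regions were listed, 431 of them in all 4 libraries, and these 431 held 93.2% and 91.9% of the chloroplast events in FA-CLIP and 95.02% and 97.0% in mock.

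Some features of the sites were shared by both groups. Median site width was 28 and 29 nt in FA-CLIP, against 28 and 26 nt in mock. Every one of the 4142 sites held at least 2 T on the strand of its gene, whereas 10 sites held no A, 42 no C and 46 no G. The kind of conversion counted was not stated. The N6-methyladenosine consensus was searched as AAACU, as AGACU, as GAACU and as GGACU in the protein-coding loci. On the strand of the gene it was in 14.1% and 12.5% of the sites in FA-CLIP, against 13.2% and 12.3% in mock. Windows of the same length across the same genes held it at 10.1% and 10.4% for the FA-CLIP sites and 9.82% and 10.4% for the mock sites. On the opposite strand the sites held it at 9.09% and 9.43% in FA-CLIP, against 8.57% and 10.1% in mock. UGUAA was in 3.32% and 3.996% of the sites in FA-CLIP, against 2.32% and 3.16% in mock, with windows at 3.11% and 3.08% for FA-CLIP and 2.97% and 3.03% for mock. UGUAC or UGUAU was in 7.07% and 6.99% of the sites in FA-CLIP, against 7.14% and 8.54% in mock, with windows at 7.52% and 7.39% for FA-CLIP and 7.59% and 7.69% for mock. On the opposite strand UGUAA was in 4.04% and 3.89% of the sites in FA-CLIP, against 5.18% and 4.27% in mock, and UGUAC or UGUAU was in 4.91% and 5.44% in FA-CLIP, against 4.11% and 5.70% in mock. The 449 reproducible FA-CLIP sites of these loci are wider. The consensus was in 24.7% of them (Wilson 95% interval 21.0 to 28.9), against 17.7% of windows, and on the opposite strand in 16.3%, against 17.6% of windows. Mock sites were not joined in the same way, so this excess has no mock value beside it. In the single libraries the consensus exceeded its windows in both groups. A match is a description of the letters and not of a binding site.

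Chloroplast sequence also occurs elsewhere in the genome. Sites of 16 nt or more were searched in the nuclear and mitochondrial chromosomes of TAIR10.1. Sites with an exact copy there held 4.96% and 8.69% of the chloroplast events in FA-CLIP, against 5.13% and 8.51% in mock, so library 2 was the high one in both groups. Their part in the results was not tested.

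The input FPKM of the same loci bore little relation to the event counts, and a weak positive relation to events per kb in protein-coding loci. FPKM is scaled to gene length, and the event counts were not. Of 125 chloroplast loci with an input row, the rank correlation between the mean FA-CLIP events and the mean FPKM was −0.13, and with mock events it was −0.08. Pearson's r on log2(value + 1) was −0.14 and −0.12. For 85 protein-coding loci with events expressed per kb of gene, Spearman's rho was 0.31 for FA-CLIP and 0.33 for mock. These are descriptions across loci that share libraries, and loci are not independent replicates. The highest FPKM belonged to short genes. psbM, for a small photosystem II subunit, had 55077.7 and 42137.9 FPKM in the input, with 30 and 38 events in FA-CLIP and 17 and 23 in mock. trnH had 31057.3 and 24041.9 FPKM in the input. The other loci of highest mean FPKM were trnT ATCG00390 (7221), rpl32 (4740) and trnS ATCG00090 (2344).

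The input also had gaps and a difference between its own libraries. The 8 rRNA loci had no input row. Of the 8 tRNA loci with an intron, 7 were listed at 0 in both input libraries, namely trnG ATCG00100, both trnA, both trnI, trnV ATCG00450 and trnK, although trnG had 1540 and 2329 events in FA-CLIP and 1131 and 2113 in mock. trnD, without an intron, was also listed at 0. psbA had 70.4 FPKM in input library 1 and 786 in input library 2, and rbcL had 16.8 and 111. Of 86 protein-coding loci, 20 were more than 2 times higher in input library 2, among them 6 of 15 for photosystem II, 4 of 7 for photosystem I, 5 of 6 for cytochrome b6f, 3 of 6 for the ATP synthase and rbcL. Of the 25 ribosomal protein loci and the 12 NDH loci 0 were. The median log2 ratio of input library 2 to 1 was 1.21 for photosystem I, 1.52 for cytochrome b6f and 0.04 for ribosomal protein loci, against −0.02 for 22037 nuclear protein-coding genes. The median was 0.59 for photosystem II, 0.79 for the ATP synthase and 0.28 for NDH loci.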

How the data were processed

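FA-CLIP and mock libraries were made with a small RNA kit and input libraries with an RNA kit, per the labels' protocols. Per the submitters' processing notes, the tools were cutadapt and Bowtie and the build TAIR10, with no versions or roles. The site caller and the treatment of multiply aligned reads were not stated. Each site in the deposited FA-CLIP and mock files carries a whole-number count of conversion events, unscaled. For the input, the authors deposited 1 value per locus, read as FPKM from the header layout and the range of the values, so its depth is unknown. Positions were checked against RefSeq TAIR10.1: 128 of 131 loci with sites were matched by strand and position, and 30 mirrored sites of the inverted repeat coincide exactly when coordinates are read as counted from 1, against 10 under shifts of 1 nt. Sites repeated across transcripts entered once per library, and once per locus in locus values (2 to 6 sites per library lie in 2 loci). Role classes follow gene names. Shares, Wilson intervals and the exact permutation test used Python 3.11.15, pandas and scipy, and overlaps used bedtools 2.31.1. The functions were tested on simulated sites. No count model was fitted across loci, because sites were called separately in each library and a locus without a site has no measured value. Named loci were the 10 highest in each group, the 5 highest and 5 lowest ratios, loci in 1 group only and the 5 highest FPKM. A result that this rule selects is not reported here. The members, classes and lists were chosen with earlier results of these data known. Other loci were named by the role groups after their values were seen.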

Additional observations from a re-analysis of the deposited data

How the results depend on the processing

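Leaving out 1 library at a time gave a log2 ratio of chloroplast shares between −1.29 and −1.20, against −1.24, and a log2 ratio of the rRNA share within the chloroplast events between −0.67 and −0.47, against −0.56. The chloroplast log2 ratio was −1.09 with sites of 10 or more events, −3.24 as a share of distinct sites and −1.64 with every listed row. Outside nuclear protein-coding genes it reversed to 0.037, and outside rRNA, tRNA, AT2G01021 and AT5G45720 it was −1.21. The rRNA ratio was −0.29 as a share of distinct sites, −0.78 with 1 copy of the inverted repeat and −1.81 as a share of all events. As shares of distinct sites, the ratios reversed for tRNA (−0.26), photosystem I (−0.14), photosystem II (−0.19), cytochrome b6f (−0.0084) and rbcL (−0.23). As shares of all events they reversed for tRNA (−0.33), photosystem II (−0.18), rbcL (−0.060), ribosomal proteins (−0.18) and RNA polymerase (−0.62), and with sites of 10 or more events for RNA polymerase (−0.36). The loci below and above mock numbered 7 and 95 as shares of the chloroplast events, against 32 and 32 as shares of all events. The share of reproducible sites that overlapped mock was 81.5% to 84.0% with 1 mock library. It was 74.5% when 50% of each site had to be shared. That rule also set which sites were reproducible, so this was 377 of 506 sites and not of 698. The correlation of FA-CLIP events with input FPKM was 0.048 among loci of 1 FPKM or more, and between −0.19 and −0.10 with 1 library left out. Chosen after seeing the data were the shares outside nuclear protein-coding genes, the class shares of all events, rRNA without the largest 16S sites, the overlap outside the inverted repeat, the correlations without 1 FA-CLIP library and the ratios of named loci, printed regions and rRNA pairs without 1 library. Among those ratios the 23S region at gene positions 2209 to 2315 had a log2 ratio between −0.26, reversed without FA-CLIP library 2, and 0.87, against 0.41. The denominators account by construction for the reversals between shares of chloroplast, all and remaining events, and the cause of the others was not tested. Of 215 alternative values, 168 stayed within the spread or limit of the main value. Many of these leave out 1 library, and the spread of a ratio comes from those same libraries. Such values stay within it almost by construction, so the count is no measure of robustness. No paired analysis was possible because these results come from no fitted test, and replicate numbers only name the libraries. Low event counts limit the values of ribosomal protein loci.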
